A study of Mus musculus with 19 samples.

Results

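A group of 8 genes, out of 51789 in the count table, was followed across tTA genotypes: 5 neighbours on distal mouse chromosome 12 (Wdr60, Esyt2, D430020J02Rik, Ncapg2 and Ptprn2) and 3 relatives of them that lie elsewhere (Esyt1, Esyt3 and Ptprn). They were chosen by name, the first 5 as genes beside a forebrain tTA insertion and the other 3 as paralogs that could compensate. Earlier results of these data were known at that choice, so shares of all genes set beside these 8 are a description only. All 8 were found in the table and all 8 passed the filter on low counts. tTA is the tetracycline transactivator, a protein that switches on transgenes placed under a tet promoter.

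Total RNA depleted of ribosomal RNA was sequenced in 19 libraries, all of dorsal hippocampus from C57BL/6J males 2 to 4 months old. In experiment 2 every mouse lacked the DN transgene. Its libraries were tTA- homecage replicates 1 and 2, tTA+ homecage replicates 3 and 4, tTA- SOR replicate 1 and tTA+ SOR replicates 2, 3 and 4, SOR being an exposure given by its abbreviation only. All mice of experiment 1 were tTA+ with the SOR exposure. Of their libraries, 5 were from mice that also carried DN, a transgene that blocks Nr4A transcription factors in a dominant-negative way, and 6 were from controls without it. The promoter that drives tTA and the copy number of its insertion are not given in the sources used here, and no row of the table stands for the transgene, so the tTA labels could not be checked by it.

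As background, one widely used mouse line with tTA under a Camk2a promoter is known to carry its transgene in distal chromosome 12, where host DNA over several of these genes was lost at the insertion. Whether these mice are of that line was not tested. A mouse that has lost a single copy of a gene keeps the other, and the RNA level can then follow the copy number, be buffered at the remaining copy, or be met by a change in a paralog. Wdr60 (also named Dync2i1) is an intermediate chain of dynein-2, the motor that carries cargo back down the cilium. Esyt1, Esyt2 and Esyt3 are the extended synaptotagmins, which tether the endoplasmic reticulum (ER) to the plasma membrane and move lipids between them. Ncapg2 is a subunit of condensin II, which compacts chromosomes, and D430020J02Rik is a non-coding RNA that starts beside it on the opposite strand. Ptprn2 (phogrin) and Ptprn (IA-2) are receptor-type phosphatase-like proteins of the dense-core vesicle membrane.

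On GRCm38 the 5 chromosome 12 genes follow each other within chr12:116206262-117276849. Wdr60 occupies 116206262 to 116263022 on the minus strand (35 annotated exons) and Esyt2 occupies 116281196 to 116391050 on the plus strand (40 exons). D430020J02Rik runs from 116401947 to 116405210 on the minus strand (2 exons) and Ncapg2 from 116405402 to 116463731 on the plus strand (38 exons). Ptprn2 is the longest, from 116485720 to 117276849 on the plus strand (32 exons). The paralogs lie on other chromosomes: Esyt1 on 10, Esyt3 on 9 and Ptprn on 1.

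D430020J02Rik and Ncapg2 point away from each other, and the 191 bases between their annotated starts, chr12:116405211-116405401, are shown because both genes start at its ends. The plus strand is printed from the RefSeq promoter windows (GRCm38.p6), and capitals mark the 2 matches to TGACG, 1 on each strand, the core letters of a cyclic AMP response element.
D430020J02Rik-Ncapg2: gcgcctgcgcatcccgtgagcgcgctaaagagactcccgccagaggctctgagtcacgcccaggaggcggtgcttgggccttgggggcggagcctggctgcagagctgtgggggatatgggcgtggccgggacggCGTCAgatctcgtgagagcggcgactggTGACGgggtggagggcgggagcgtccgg
TGACG on either strand was present in 4 of 9 promoter windows of the 8 genes, against 20.8% of all 32851 windows of the same length. The 4 were those of Esyt2, D430020J02Rik and Ncapg2 and 1 of 2 of Ptprn, and those of D430020J02Rik and Ncapg2 share 226 bases. The whole element TGACGTCA (1.79% of all windows) and the Nr4A element AAAGGTCA (1.51%) were in none of the 9 windows.

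Esyt2, Wdr60, Ncapg2 and Ptprn2 fell in tTA+ hippocampus to between 51.7% and 60.8% of the tTA- level, and the paralogs Esyt1, Esyt3 and Ptprn did not pass the test in either direction. Of the 5 chromosome 12 genes, 4 were called lower in tTA+ libraries (edgeR quasi-likelihood F test with exposure in the model, Benjamini-Hochberg adjusted p under 0.05 over 23659 genes), where 0.254% of all genes tested were called lower. In all 5 genes every tTA+ library lay below every tTA- library, which held for 3.51% of all genes tested. The median log2 fold change was -0.84 over the 5 genes and 0.01 over all genes. In these bulk samples, fewer cells of a type and less RNA per cell cannot be told apart.

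**Figure D1:**
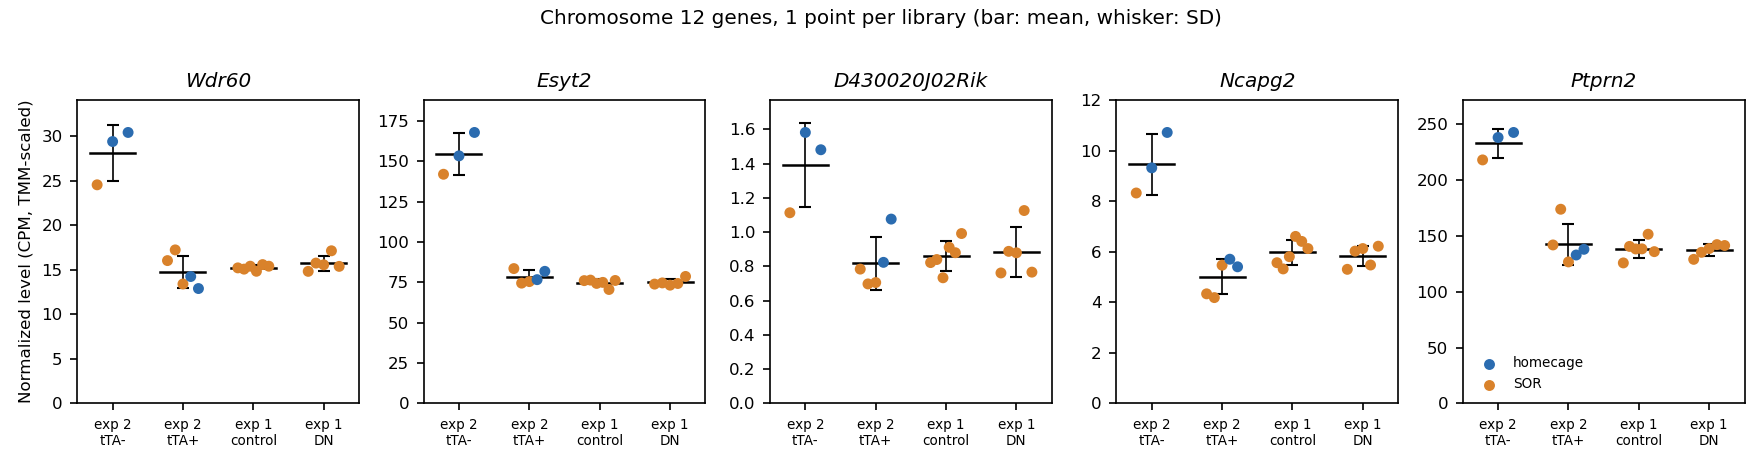
Normalized level in CPM (counts scaled by TMM to a common library total, y axis from 0) of the 5 chromosome 12 genes in the 4 sets of libraries (x axis), with 1 point per library, coloured by exposure, and the mean and SD. In every panel the 3 tTA- libraries stand above the 5 tTA+ libraries of experiment 2, and the 11 tTA+ libraries of experiment 1 sit near the latter, except 1 DN library for D430020J02Rik at 1.13 CPM.

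Esyt2, the most abundant extended synaptotagmin here, measured 153 and 168 CPM in tTA- homecage replicates 1 and 2 and 142 CPM in tTA- SOR replicate 1. In the tTA+ libraries it measured 76.6 and 81.8 CPM (homecage replicates 3 and 4) and 83.5, 74.5 and 75.4 CPM (SOR replicates 2, 3 and 4). The groups were far apart: the highest tTA+ library was well under the lowest tTA- library. The group means were 78.3 ± 4.02 CPM (SD, n = 5) against 154 ± 13.0 CPM (n = 3). The log2 fold change was -0.95 (SE 0.0904, 95% interval -1.15 to -0.75, adjusted p = 0.00118), the smallest p of the 8 genes and the 13th smallest of all genes.

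Wdr60, the dynein-2 subunit, measured 29.4 and 30.4 CPM in the tTA- homecage libraries and 24.5 CPM in the tTA- SOR library. In tTA+ homecage libraries it was at 14.2 and 12.9 CPM, and in tTA+ SOR libraries at 16.03, 17.2 and 13.4 CPM. The tTA- SOR library was the lowest of its genotype, and still lay above all 5 tTA+ libraries. This was a log2 fold change of -0.94 (SE 0.130, 95% interval -1.23 to -0.65, adjusted p = 0.0138).

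Ncapg2, of condensin II, measured 9.32, 10.7 and 8.32 CPM in tTA- homecage replicates 1 and 2 and SOR replicate 1. It measured 5.70 and 5.40 CPM in the tTA+ homecage libraries and 4.33, 4.18 and 5.47 CPM in the tTA+ SOR libraries, again with no overlap. Its log2 fold change was -0.84 (SE 0.141, 95% interval -1.15 to -0.53, adjusted p = 0.0376). D430020J02Rik, its non-coding neighbour, was the least counted of the 8 genes, with 46, 62 and 52 counts in the tTA- libraries and 14 to 55 in the tTA+ libraries. Scaled for depth, these were 1.58, 1.48 and 1.11 CPM against 0.823 and 1.08 CPM (tTA+ homecage) and 0.784, 0.697 and 0.705 CPM (tTA+ SOR). The highest tTA+ and the lowest tTA- library nearly touched. Its log2 fold change was -0.65 (SE 0.213, 95% interval -1.13 to -0.18), which did not pass the threshold (edgeR adjusted p = 0.528).

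Ptprn2, the dense-core vesicle protein, measured 238 and 243 CPM in the tTA- homecage libraries and 218 CPM in the tTA- SOR library. It measured 133 and 138 CPM in tTA+ homecage libraries and 142, 174 and 127 CPM in tTA+ SOR libraries. SOR replicate 3, at 174 CPM and with the fewest counts of all libraries (22258159), was the highest of the tTA+ group, yet below every tTA- library. The fit gave a log2 fold change of -0.72 (SE 0.109, 95% interval -0.96 to -0.47, adjusted p = 0.0221).

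A fall to 1 copy of 2 would be -1 on the log2 scale. The 95% intervals of 4 of the 5 genes held that value, and the interval of Ptprn2 ended just short of it at -0.96. All 5 intervals lay below 0. Over 19 alternatives 4 or 5 intervals held -1, and it was 5 without SOR replicate 1 and without homecage replicate 4, among others. As a share of the tTA- level, the fitted estimates were 51.7% for Esyt2 (interval 45.0% to 59.3%), 52.2% for Wdr60 (42.7% to 63.7%) and 55.9% for Ncapg2 (45.0% to 69.4%). They were 60.8% for Ptprn2 (51.4% to 72.0%) and 63.6% for D430020J02Rik (45.9% to 88.1%). Of the differences in size among the 5 genes, those from Esyt2 were examined. Set against Esyt2 within each library, the log2 ratio of Ptprn2 differed between genotypes by 0.26 (exact two-sided permutation p = 0.0536, adjusted over 4 pairs 0.214). The ratios of D430020J02Rik, Ncapg2 and Wdr60 to Esyt2 differed by 0.24, 0.06 and 0.05, with adjusted exact permutation p of 0.286, 0.732 and 0.732. With 56 arrangements and adjustment over 4 pairs, a single differing pair could not have reached an adjusted p under 0.05, so these values do not show that the falls were equal.

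For all 5 genes the SOR library was the lowest of the 3 tTA- libraries. The estimates of all 5 stayed below 0 whichever library was left out, but the calls of Wdr60, Ncapg2 and Ptprn2 did not all hold. Without any 1 of homecage replicates 1, 2, 3 or 4 or SOR replicate 1, only Esyt2 of the 5 was called, with edgeR adjusted p of 0.0585 to 0.129 for Wdr60, 0.150 to 0.465 for Ncapg2 and 0.152 to 0.207 for Ptprn2. In these fits 10 to 25 of 23457 to 23646 genes tested were called, against 86 of 23659 in the main fit. Their log2 fold changes were -1.14 to -0.85 for Wdr60, -0.88 to -0.78 for Ncapg2 and -0.82 to -0.68 for Ptprn2. With the SOR libraries alone the log2 fold changes were -0.67 (Wdr60), -0.87 (Esyt2), -0.61 (D430020J02Rik), -0.84 (Ncapg2) and -0.57 (Ptprn2). Only 1 library is tTA- there, so calls in that fit cannot decide on these genes. With the homecage libraries alone they were -1.13, -1.02, -0.70, -0.85 and -0.82 in the same order. Of the 5 genes 4 were called there, where 944 of all 22617 genes tested were called. Markers of choroid plexus, a tissue that lies beside the hippocampus, set apart the SOR library of the tTA- group, where their 8 genes summed to 1037 CPM against 72.7 and 182 CPM in the other tTA- libraries. They likewise set apart tTA+ SOR replicate 2, at 2245 CPM against 25.3 to 81.5 CPM in the other tTA+ libraries. The fit of homecage libraries alone leaves out both. Without SOR replicate 2 the same 4 genes were called.

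The dentate granule cell markers moved with the same comparison. Of 8 such genes, 7 had lower estimates in tTA+ libraries and 4 were called lower (C1ql2, Trpc6, Dsp and Glis3), while Tdo2 was called higher. None of the 8 was at 0 in any library. Their summed level was 416 to 495 CPM in the tTA+ and 694 to 738 CPM in the tTA- libraries of experiment 2, and 380 to 530 CPM in experiment 1. Sums of the other neuronal markers overlapped between the genotypes: 791 to 914 CPM against 907 to 988 CPM for CA1, where SOR replicate 3 alone of the tTA+ libraries reached the tTA- range, 227 to 272 CPM against 260 to 274 CPM for CA3, and 6820 to 7763 CPM against 7259 to 7632 CPM for neurons. Estimates were negative for 5 of 6 CA1 markers (median -0.12, 2 at an unadjusted p under 0.05), 3 of 6 CA3 markers (median -0.10, 1) and 4 of 6 neuron markers (median -0.04, 0), with 0 called by edgeR. Of the glial lists, all 8 oligodendrocyte markers had positive estimates (median 0.20, 0 called by edgeR, 2 at an unadjusted p under 0.05), with sums of 6226 to 7440 CPM in tTA+ and 5813 to 6498 CPM in tTA- libraries. All 6 microglia markers had positive estimates (median 0.08, sums of 314 to 379 CPM against 290 to 333 CPM), as had 5 of 6 astrocyte markers (median 0.08), with 0 called. The part of these markers in the chromosome 12 result was not tested.

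The tTA+ libraries of experiment 1 gave a further look at the same 5 genes in mice that all carry tTA, described here without a test because experiment and genotype cannot be told apart in it. All 11 libraries lay below all 3 tTA- libraries for Wdr60, Esyt2, Ncapg2 and Ptprn2, as did 10 of 11 for D430020J02Rik. In 9.19% of all genes tested every experiment 1 library lay below every tTA- library, a comparison in which experiment, genotype and exposure differ together. Lowest, median and highest levels were 70.5, 74.6 and 78.6 CPM for Esyt2, 14.8, 15.4 and 17.1 CPM for Wdr60, and 126, 138 and 152 CPM for Ptprn2. They were 5.30, 6.02 and 6.61 CPM for Ncapg2 and 0.733, 0.879 and 1.13 CPM for D430020J02Rik. As shares of the tTA- mean these libraries averaged 48.5% (Esyt2), 55.0% (Wdr60), 59.2% (Ptprn2), 62.5% (Ncapg2) and 62.7% (D430020J02Rik). In the tTA+ libraries of experiment 2 the same shares were 50.8% (Esyt2), 52.5% (Wdr60), 61.2% (Ptprn2), 53.1% (Ncapg2) and 58.7% (D430020J02Rik). Both sets of shares are relative to the same 3 tTA- libraries.

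**Figure D2:**
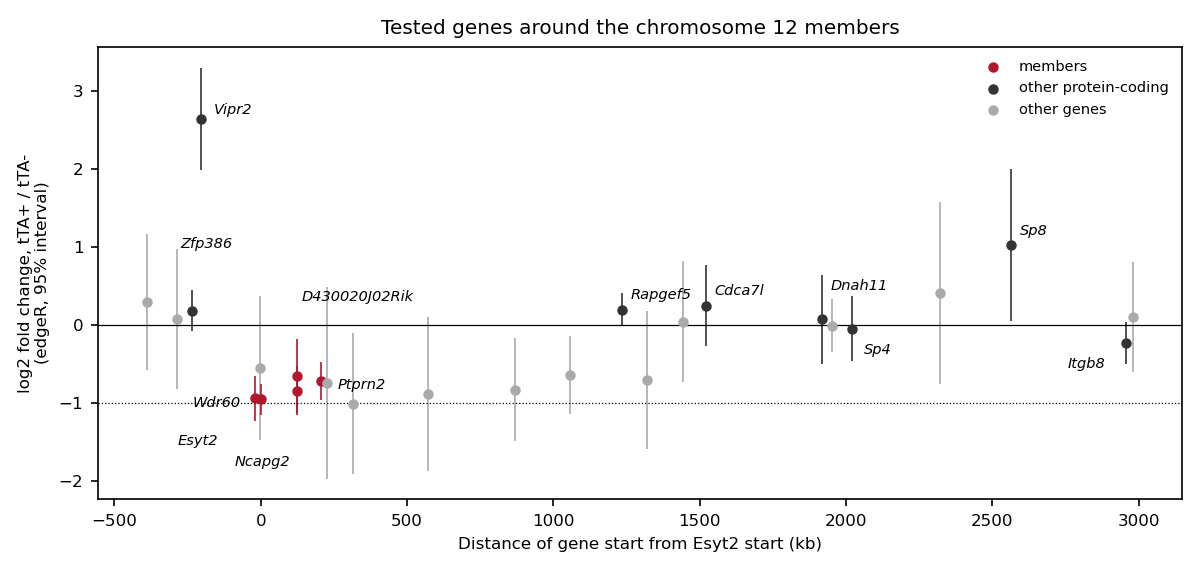
Fitted log2 fold change of tTA+ over tTA- (y axis, points, with 95% intervals as bars) of the genes tested within 2 Mb of the 5 genes, against the distance of each gene's start from that of Esyt2 in kb (x axis); the dotted line marks 1 copy of 2, and Ighv1-62, which had no counts in tTA- libraries, is left out. The 5 red points, the chromosome 12 members, lie between -0.95 and -0.65, and the protein-coding genes from Rapgef5 onwards lie between -0.23 and 1.03.

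None of the 8 protein-coding genes tested around the 5 was called lower in tTA+ libraries, and 2 had negative estimates. Zfp386, a zinc finger gene on the proximal side, was at 43.9 ± 5.38 CPM (SD, n = 5) in tTA+ and 39.0 ± 1.27 CPM (n = 3) in tTA- libraries, with a log2 fold change of 0.19 (SE 0.121). Rapgef5, the first protein-coding gene tested beyond Ptprn2 and an exchange factor for small GTPases, was at 479 ± 36 CPM against 416 ± 15.3 CPM, with a log2 fold change of 0.20 (SE 0.0951). Of the 6 protein-coding genes tested distal to Ptprn2, none was called by edgeR and 1, Sp8, had an unadjusted p under 0.05, with an estimate of 1.03. The others, Rapgef5, Cdca7l, Dnah11, Sp4 and Itgb8, had estimates of -0.23 to 0.25. The tTA+ and tTA- libraries of Rapgef5 and Itgb8 did not overlap either: all tTA+ libraries were higher for Rapgef5, as in 2.26% of all genes tested, and lower for Itgb8. Vipr2, a receptor for vasoactive intestinal peptide that lies between Zfp386 and Wdr60, rose instead, from 0.655 ± 0.308 CPM to 3.63 ± 0.568 CPM (log2 fold change 2.65, SE 0.296, edgeR adjusted p = 0.00366).

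The 5 non-coding genes and pseudogenes tested that overlap Ptprn2 (Gm6750, Gm17807, Gm48119, Gm10421 and Gm5441) all had negative estimates, from -1.01 to -0.64, with 0 called by edgeR and 3 at an unadjusted p under 0.05. Gm17807 lies on the plus strand, as does Ptprn2, and the others lie on the minus strand. The use of strand is not stated, and whether reads of Ptprn2 were counted for these genes was not tested. Ighv1-62, an immunoglobulin pseudogene and the most proximal gene tested in the window, had 0 counts in each tTA- library, 5 to 12 in the tTA+ libraries of experiment 2 and 7 to 49 in those of experiment 1. Against the floor of 3 counts over the tTA- group, its tTA+ level was at least 7.52-fold higher. In all, 22 other genes were tested in the window, 10 with negative and 12 with positive estimates, and Vipr2 was the only one called. Of the 86 genes called across the genome, 8 lay on chromosome 12, where 987 of the 23659 genes tested lie, and 5 of these in the window.

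None of the 3 paralogs passed the test, where 0.363% of all genes tested were called in either direction. Their tTA+ and tTA- libraries overlapped in each case. Esyt1 measured 7.63, 6.97 and 5.09 CPM in the tTA- libraries (homecage replicates 1 and 2, SOR replicate 1). It measured 7.11 and 7.33 CPM in tTA+ homecage libraries and 7.23, 10.3 and 7.30 CPM in tTA+ SOR libraries. The lowest value was thus the tTA- SOR library and the highest the tTA+ SOR replicate 3, while the other 6 lay close together. The log2 fold change was 0.27 (SE 0.186, 95% interval -0.14 to 0.68, edgeR adjusted p = 1). It became -0.01 without SOR replicate 1, -0.01 with homecage libraries alone and 0.68 with SOR libraries alone, none of which passed the test.

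Esyt3, the least abundant of the family, measured 2.82, 2.41 and 2.20 CPM in the tTA- libraries. It measured 3.52 and 2.40 CPM in tTA+ homecage libraries and 2.16, 1.94 and 2.16 CPM in tTA+ SOR libraries, so the highest value and the lowest were both tTA+. The log2 fold change was 0.08 (SE 0.197, 95% interval -0.36 to 0.52). Ptprn, the partner of Ptprn2, measured 157, 178 and 156 CPM in the tTA- libraries. It measured 167 and 174 CPM in tTA+ homecage libraries and 187, 189 and 164 CPM in tTA+ SOR libraries, a range that overlaps the former. The log2 fold change was 0.10 (SE 0.0940, 95% interval -0.11 to 0.31). At this depth and number of libraries, a rise of Ptprn above 124% of the tTA- level lay outside its interval, while the upper ends for Esyt1 and Esyt3 were 161% and 143%.

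**Figure D3:**
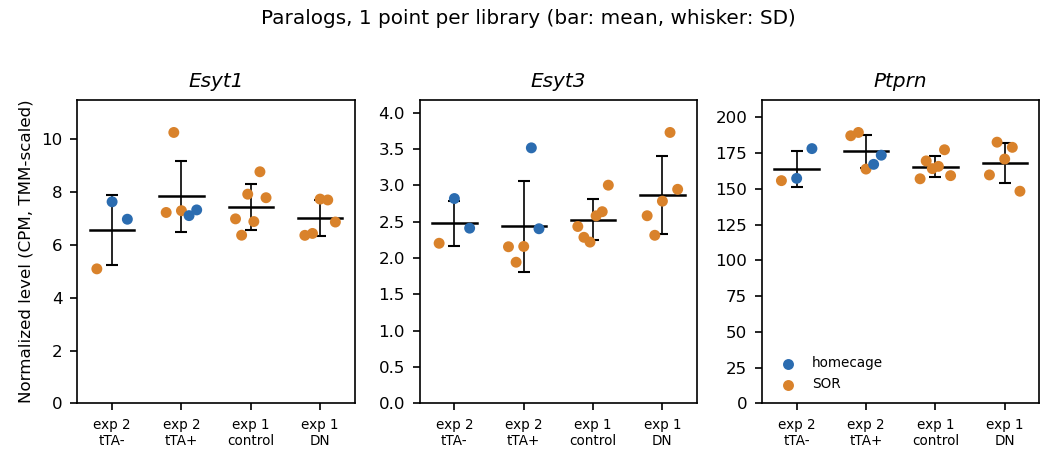
Normalized level in CPM (y axis from 0) of the 3 paralogs in the 4 sets of libraries (x axis), 1 point per library, coloured by exposure, with the mean and SD. The tTA- and tTA+ points overlap in every panel, with 1 tTA+ library of Esyt1 at 10.3 CPM and 1 of Esyt3 at 3.52 CPM above the rest of their group in experiment 2.

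Within a library, Esyt2 and Ptprn2 were lower relative to their paralogs in the tTA+ group. The log2 ratio of Esyt2 to Esyt1 was lower in tTA+ than in tTA- libraries by a difference of -1.24, that of Esyt2 to Esyt3 by -0.93 and that of Ptprn2 to Ptprn by -0.82. All 5 tTA+ libraries lay below all 3 tTA- libraries in each of the 3 pairs. The exact two-sided permutation p was 0.0179 for each pair, the smallest that the 56 arrangements can give, and 0.0179 after adjustment over the 3 pairs.

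Levels of different genes were set side by side after division by exon length (CPM per kb). In tTA- libraries the order was Ptprn (38.5 ± 2.94), Ptprn2 (27.1 ± 1.52), Esyt2 (16.9 ± 1.42), Wdr60 (3.47 ± 0.387), Ncapg2 (0.951 ± 0.121), Esyt1 (0.904 ± 0.181), D430020J02Rik (0.473 ± 0.0839) and Esyt3 (0.347 ± 0.0439; SD, n = 3). Ncapg2 and Esyt1, next to each other in this order, did not differ beyond their spread. In tTA+ libraries Esyt1 (1.08 ± 0.186) stood above Ncapg2 (0.505 ± 0.0709), and Esyt3 (0.341 ± 0.0878) and D430020J02Rik (0.278 ± 0.0524) were within their spread of each other (n = 5).

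Summed per kb, the extended synaptotagmins came to 18.1 ± 1.57 CPM per kb in tTA- and 9.99 ± 0.358 CPM per kb in tTA+ libraries. Esyt2 made up 93.1% of that sum in tTA- and 85.8% in tTA+ libraries, and the total ran from 16.5 to 19.7 and from 9.55 to 10.4 CPM per kb, with no overlap. In experiment 1 the sum was 9.55 ± 0.171 CPM per kb in control (n = 6) and 9.56 ± 0.266 CPM per kb in DN libraries (n = 5). In the Ptprn pair, where Ptprn is the more abundant, the sum was 65.6 ± 4.14 CPM per kb in tTA- (62.0 to 70.1) and 58.1 ± 4.65 CPM per kb in tTA+ libraries (53.3 to 64.8), which overlap. The share of Ptprn2 in its pair went from 41.3% to 28.5%, and was 29.2% and 28.8% in the control and DN libraries of experiment 1.

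**Figure D4:**
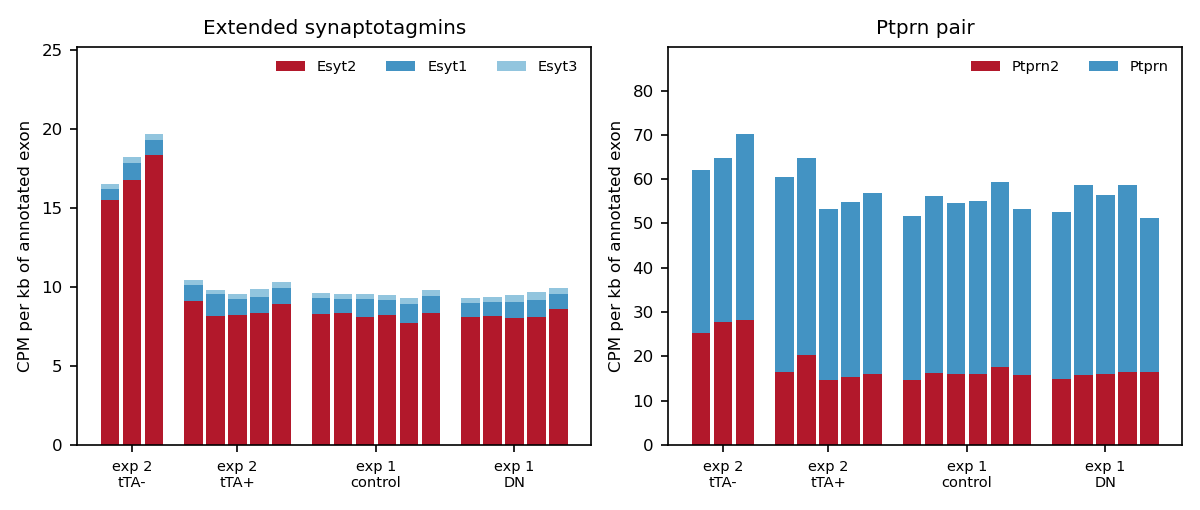
Stacked levels per kb of annotated exon (y axis, CPM per kb, from 0) of the extended synaptotagmins (left) and of the Ptprn pair (right), 1 bar per library, grouped by experiment and genotype (x axis). The Esyt2 part is shorter in every tTA+ bar while the Esyt1 and Esyt3 parts stay thin, and the mean family total is 18.1 (tTA-) and 9.99 CPM per kb (tTA+) in experiment 2; in the right panel Ptprn makes up most of each bar.

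Partners of these proteins and genes of the same structures were listed. There were 28 genes of ER-plasma membrane contacts, 7 of the condensins, 20 of dynein-2 and transport in the cilium in either direction, and 24 of dense-core vesicles. All were tested. The contact genes had 16 positive and 12 negative estimates with a median of 0.02 and 0 called by edgeR, with 2 at an unadjusted p under 0.05. Those were Jph1, a junctophilin that holds ER and plasma membrane together (59.2 ± 3.09 CPM in tTA+ against 88.3 ± 12.3 CPM in tTA- libraries, log2 fold change -0.53, adjusted p = 0.0687), and Pitpnm2, a phosphatidylinositol transfer protein (-0.32, adjusted p = 0.731). The condensin list had 2 positive and 5 negative estimates with a median of -0.05 and 0 called, Smc2 alone reaching an unadjusted p under 0.05 (-0.24, adjusted p = 0.863). Ncaph2 and Ncapd3, which join Ncapg2 in condensin II, had estimates of 0.18 and -0.07.

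The dynein-2 list had 15 positive and 5 negative estimates, a median of 0.05, 0 called and 0 at an unadjusted p under 0.05. Its heavy chain Dync2h1, at 185 ± 8.03 CPM in tTA+ and 183 ± 14.9 CPM in tTA- libraries, had an estimate of 0.04. Of its other genes, Dynlt1b and Dynlrb2 had the smallest p, with log2 fold changes of 0.42 and 0.25. The dense-core vesicle list had 18 positive and 6 negative estimates with a median of 0.05. A single member was called: Scg2, the precursor of secretoneurin, fell from 307 ± 17.4 CPM to 205 ± 25.2 CPM (log2 fold change -0.62, SE 0.101, edgeR adjusted p = 0.0321). At an unadjusted p under 0.05 the list had 7 of 24 genes, against 1362 of all 23659. Beside Scg2 these were Rab27b, Syt7 and Sort1 with estimates of -0.51, -0.50 and -0.23, and Chga, Pcsk2 and Sv2c with 0.30, 0.21 and 0.37, none of which passed the adjusted threshold. The median over all genes was 0.01.

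**Figure D5:**
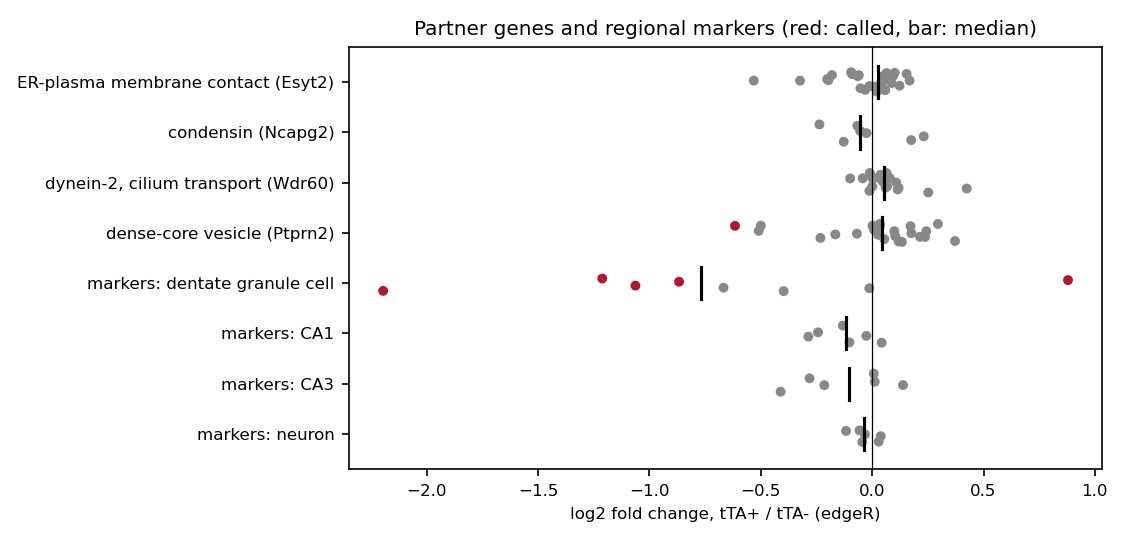
Fitted log2 fold change of tTA+ over tTA- (x axis) of each tested gene of the 4 partner lists and of 4 marker lists (rows), red where called at an adjusted p under 0.05, with a bar at the list's median. The partner lists centre near 0, with Scg2 the only called gene among them, while the dentate granule cell markers have a median of -0.77.

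By shape across the 8 libraries of experiment 2, the profiles most like that of Esyt2 belonged to Kcng1 (chromosome 2), Rflnb (11), Nek10 (14), Spata13 (14) and Slc2a9 (5). Likeness was the root mean square difference of centred log2 CPM, which was 0.106, 0.106, 0.120, 0.127 and 0.127 for these genes. Since Esyt2 itself is split by genotype, genes chosen this way had to differ between genotypes too, and their estimates, from -1.01 to -0.72, are a description only. Wdr60 ranked 12th by this measure (0.148), Ncapg2 19th (0.166), Ptprn2 37th (0.195) and D430020J02Rik 53rd (0.207). The paralogs Esyt3, Ptprn and Esyt1 were far from it, at 0.516, 0.529 and 0.639.

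The SOR exposure, compared in the same fit with tTA genotype kept in, left all 8 genes uncalled, where 0.0465% of genes tested were called. Estimates of SOR over homecage were 0.01 (Wdr60), -0.09 (Esyt2), -0.40 (D430020J02Rik), -0.26 (Ncapg2), 0.02 (Ptprn2), -0.07 (Esyt1), -0.42 (Esyt3) and 0.01 (Ptprn). The smallest unadjusted edgeR p was 0.0519, for Esyt3. Genotype was unevenly spread over exposure, with 3 of 4 SOR but 2 of 4 homecage libraries tTA+. With tTA left out of the model the SOR estimates of Wdr60, Esyt2, Ncapg2 and Ptprn2 became -0.29, -0.36, -0.47 and -0.19, and none was called.

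Whether the tTA difference itself differed between exposures was asked with an interaction term. None of the 8 genes was called and 0% of the 25045 genes tested were called by edgeR, with 561 at an unadjusted p under 0.05, and DESeq2 also called 0. The largest estimates were 0.68 (SE 0.318) for Esyt1 and 0.46 (SE 0.232) for Wdr60. In simulated data of this design 0 of 200 genes changed 2-fold were recovered, so this term could not show differences of that size.

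DN against control within experiment 1, where tTA did not vary, also left all 8 genes uncalled, where 0.00893% of genes tested were called. The largest estimate was 0.19 (SE 0.131) for Esyt3, and the other 7 lay between -0.09 and 0.05. The interval for Esyt2 was -0.07 to 0.08 and that for Ptprn2 -0.10 to 0.07. In simulated data of this design 197 of 200 genes changed 2-fold were recovered.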

How the data were processed

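The authors deposited raw counts, in 1 table of 51789 genes by 19 libraries. Per the labels, Trizol was used for extraction and a TruSeq Ribo-Zero Gold kit for the libraries. The submitters' processing notes name STAR, SAMtools 1.6, featureCounts 1.4.4 and the mm10 build. Their parameters, the annotation, the use of strand and the treatment of multiply mapped reads are not given in the sources used here, so genes that overlap or resemble another are uncertain. Each column was matched to a library by its labels. Positions came from GENCODE M21 (GRCm38), which held 51596 of the identifiers.

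Totals were 30855629 to 47992063 counts per library in experiment 1, and 22258159 to 66991576 (tTA+) and 29271465 to 48377211 (tTA-) in experiment 2. The labels number the libraries of a group and name no animal, so p-values measure the spread between these libraries. Replicate pairs differed by more than counting noise (chi-square per degree of freedom 4.63 to 73.4 over 30 pairs), and each library was counted once. Replicate numbers were not used as pairs in the main fits. Whether they pair libraries across groups could not be decided, because correlations of deviations in so few libraries are partly set by the fit itself.

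Genes were tested with edgeR 4.0.16 (quasi-likelihood F test, robust, two-sided) in R 4.3.3 after TMM scaling and filterByExpr, with Benjamini-Hochberg adjustment over all genes tested and calls at an adjusted p under 0.05. The tTA and SOR comparisons came from 1 fit of the 8 libraries of experiment 2. The DN comparison used the 11 libraries of experiment 1. Levels are CPM with TMM scaling over all 19 libraries. Standard errors are the absolute log2 fold change over the square root of F, and 95% intervals use the fit's degrees of freedom. Ratios within a library used log2 CPM with a prior count of 2. On simulated data 155 of 200 genes changed 2-fold were recovered in the tTA design (23185 genes, 9 false calls). In the SOR design it was 164 of 200 (11 false calls).

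The members, the partner and marker lists and the tests were chosen with earlier results of these data known. Genes named were all 8 members, the genes tested within 2 Mb of the chromosome 12 members, the 5 genes whose profile was nearest to that of Esyt2, and from each partner list the called genes or else the 2 with the smallest p. Ncaph2, Ncapd3, Dync2h1, the called markers and the uncalled dense-core vesicle genes were named beside these, after their values were seen. Alternatives were other thresholds, scalings, filters and tools (DESeq2 1.42.0, limma-voom 3.58.1), other sets of libraries and covariates, the replicate block, and each library left out in turn.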

Additional observations from a re-analysis of the deposited data

Results flagged for a closer look

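Across the 8 genes and the groups of 5 or 6 libraries, 24 groups were checked for a library far from its fellows, and 3 had one; chance alone marks about 1 in 20 groups. Esyt1 in tTA+ SOR replicate 3 of experiment 2 stood at 10.3 CPM, above 7.33 CPM for the next and 7.11 CPM for the lowest tTA+ library, a gap of 0.931 of the range. That library had the fewest counts of the 19, and the highest level of Ptprn2 and Wdr60 among the tTA+ libraries of experiment 2. Esyt2 in control replicate 5 of experiment 1 stood at 70.5 CPM, below the next at 74.3 CPM and the highest at 76.3 CPM, a gap of 0.647 of the range. Esyt2 in DN replicate 5 of experiment 1 stood at 78.6 CPM, above the next at 74.6 CPM and the lowest at 73.2 CPM, a gap of 0.744 of the range. Both Esyt2 libraries remained far below the tTA- libraries, the lowest of which was at 142 CPM.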

How the results depend on the processing

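Over 20 alternatives the log2 fold changes of tTA+ over tTA- ranged from -1.02 to -0.87 for Esyt2, -1.14 to -0.67 for Wdr60, -1.08 to -0.78 for Ncapg2, -0.82 to -0.57 for Ptprn2 and -0.75 to -0.42 for D430020J02Rik. None of the 3 paralogs was called in any of them. Ptprn ranged from 0.02 to 0.20, and Esyt3 from -0.10 to 0.32. The count of genes called for tTA, 86, was 136 at an adjusted p under 0.1, 265 with no filter, 252 with DESeq2, 366 with all 19 libraries in 1 fit, 944 with homecage libraries alone and 0 with SOR libraries alone. It ranged from 10 (without SOR replicate 1) to 288 (without SOR replicate 3) as libraries were left out. The chromosome 12 genes called, 4, were 0 with SOR libraries alone and 1 to 4 with a library left out. The replicate block left 0 genes called for tTA, the 5 included, and 1 for SOR. Only replicate 2 holds both genotypes, so the genotype difference within a replicate rests on that number alone. In that fit the estimates of the 5 ran from -1.08 (Ncapg2) to -0.42 (D430020J02Rik), and the SE of Esyt2 was 0.198, against 0.0904 in the main fit. Correlations of deviations by replicate number (-0.489 to 0.308) could not decide whether the numbers are a pairing. The SOR count, 11, was 82 with no filter, 93 with DESeq2, 20 with tTA left out, 0 in tTA+ libraries alone and 1 to 49 with a library left out. The interaction count, 0, was 19 with no filter. The DN count was 2 throughout. Beyond that limit of the replicate block, the cause of these changes was not tested. The 3 paralog ratios had exact permutation p of at most 0.0476. That value is the smallest possible with a tTA- library left out, so these p could not show whether a ratio weakened. Their differences ranged from -1.36 to -1.12 (Esyt2 to Esyt1), -1.025 to -0.781 (Esyt2 to Esyt3) and -0.87 to -0.78 (Ptprn2 to Ptprn). Depth limits D430020J02Rik most, with 14 counts in its shallowest library. The tTA- SOR group is 1 library, so where it is alone its spread is taken from the other libraries.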
